A study of Mus musculus with 4 samples.

Results

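The genes described here are the mouse zinc-finger genes whose symbol is Zfp followed by a number, measured in bone marrow neutrophils that lack or carry the microRNA miR-125a. The RNA-decay genes Zfp36, Zfp36l1 and Zfp36l2 were left out of the group. Each gene was represented by the probe set with its highest mean over the 4 arrays, taken from probe sets that name 1 gene only. A gene was kept where that probe set exceeded the signal floor on at least 1 array. The floor was the 60th percentile of all values, a log2 signal of 6.80, or 111 on the unlogged scale. Of 333 such genes with a probe set on the array, 198 were kept and 135 were not above the floor on any array. The array measured 9865 genes above the floor by the same rule, of 18193 in all. The genes just under the floor were Zfp385c, Zfp202 and Zfp618, whose highest log2 signals were 6.76, 6.77 and 6.77. Those just over it were Zfp112, Zfp324 and Zfp11, with 6.81, 6.81 and 6.82. No signal difference between groups entered this choice.

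The neutrophils came from C57BL/6 mice of 8 weeks and were enriched with a bead-based isolation kit. The groups were miR-125a-/- cells given lipopolysaccharide (LPS, a cell wall component of Gram-negative bacteria) for 3 h, miR-125a+/+ cells given LPS for 3 h, unstimulated miR-125a-/- cells and unstimulated miR-125a+/+ cells. They are called KO and WT below. The RNA of 3 experiments was pooled for each group and put on 1 array, so no difference has a replicate check and no test could be run. The labels name no Cre driver or transgene. They do not settle whether unstimulated cells were cultured for 3 h, so LPS differences may include an effect of culture.

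Most genes named Zfp encode proteins with tandem C2H2 fingers, short loops that fold around a zinc ion and read DNA. A large share of them also carries a KRAB domain, which binds the corepressor Trim28 (KAP1) and so brings the histone methyltransferase Setdb1 and HP1 proteins to DNA, often at retroviral and other transposable elements. KRAB zinc-finger genes multiplied by local duplication and lie in clusters of near-identical neighbours, on mouse chromosomes 7, 13 and 17 among others. The name Zfp is a label of sequence, however, and also covers splicing factors, ribosome factors and ubiquitin ligases. Neutrophils are known in LPS responses for their cytokines and antimicrobial proteins, and few of these zinc-finger genes have a known role in them.

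The 198 genes were mostly of modest signal, with an interquartile range of mean log2 signal from 7.29 to 9.10. Of these genes, 145 exceeded the floor on all 4 arrays, and 175, 164, 171 and 170 did so on the KO LPS, WT LPS, KO unstimulated and WT unstimulated arrays. Across all probe sets, between 37.8% and 41.5% were above the floor on an array, the lowest share on the WT LPS array. The largest numbers of genes lay on chromosome 7 (43 genes), chromosome 17 (31) and chromosome 13 (18), as placed by RefSeq on GRCm38.p6. Because the genes resemble each other, signals can be shared. For 32 genes the probe set used had the suffix s, x or a, given to sets that match more than 1 transcript. With the suffix a, these can be transcripts of the same gene. The suffix was x, the cross-hybridising kind, for 13 of the 32. In all, 90 genes had 1 probe set only. miR-125a itself was not measured, and its host gene Spaca6 reached at most 6.24, which is under the floor, and these values therefore offer no check of the genotype labels.

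All 12 neutrophil markers on the array were above the floor on all 4 arrays, as the labelled cell type would have them. Monocyte and macrophage markers had summed signals of 42792 and 45530 on the KO and WT LPS arrays, against 23265 and 23228 on the KO and WT unstimulated arrays, with 7 of 7 above the floor on some array. That list split, with Adgre1, Vcam1, Csf1r and Cx3cr1 called higher after LPS and Ccr2 (-3.54 in KO and -3.88 in WT) and F13a1 (-1.79 and -1.93) called lower in both genotypes. Erythroid markers had summed signals of 282 and 222 on the KO and WT LPS arrays, against 1792 and 989 on the KO and WT unstimulated arrays, with 4 of 6 above the floor on some array. Markers of eosinophils, basophils and mast cells summed to 1524 and 1938 on the KO LPS and KO unstimulated arrays, and to 3567 and 4220 on the WT LPS and WT unstimulated arrays, with 5 of 6 above the floor on some array. B cell markers had 1 of 4, stem and progenitor markers 3 of 4, and T and NK cell markers 0 of 4 above the floor. No marker was listed at 0. The part of these other cells in the Zfp values was not tested, and in pooled RNA fewer cells of a type and less RNA per cell cannot be told apart.

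The brightest Zfp genes were Zfp622, Zfp131, Zfp207, Zfp384 and Zfp445. Zfp622, whose yeast homolog Rei1 acts in maturation of the large ribosomal subunit, had log2 signals of 12.977 and 12.998 on the KO and WT LPS arrays, against 13.73 and 13.81 on the KO and WT unstimulated arrays. Its probe set is of the cross-hybridising kind. Zfp207 (BuGZ), a kinetochore and spindle protein, had 11.95 and 12.01 on the KO and WT LPS arrays, against 11.94 and 11.93 on the unstimulated ones, so its 4 values lay within 0.08 by that probe set. Its 5 other probe sets were all lower after LPS, 3 of them by -1.96 to -2.63 in KO and -2.49 to -3.13 in WT cells, so the brightest probe set does not stand for the gene. Zfp384, a transcription factor that is a fusion partner in human leukaemias, had 11.39 and 11.58 after LPS in KO and WT, against 11.77 and 11.51 unstimulated. Zfp445, which maintains imprints by binding methylated DNA at imprinting control regions, had 11.11 and 10.95 after LPS in KO and WT, against 11.97 and 11.98 unstimulated. Zfp131 is described with the genes higher after LPS.

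LPS treatment went with lower signal of more Zfp genes than with higher signal, in both genotypes. A difference was called where the signals of a pair of arrays differed at least 2-fold, which is 1 on the log2 scale. A gene counted as measured in a comparison where one array or both of the pair gave a signal over the floor. Values under the floor were set to it, and where that happened on one array the difference can only be a lower bound, and its fold is given with the words at least. In KO cells 22 of 186 measured genes (11.8%) were called lower after LPS and 10 (5.38%) higher, against 7.99% lower and 6.62% higher among all 9578 genes measured. In WT cells 34 of 184 (18.5%) were lower and 8 (4.35%) higher, against 9.69% lower and 7.29% higher among all 9507. The median log2 difference was -0.10 in KO and -0.14 in WT cells, against -0.05 and -0.03 over all genes.

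Signal level bears on that reading. Among the 2621 other genes with a mean signal in the interquartile range of the Zfp genes, 11.8% were lower in KO and 13.5% in WT cells, with medians of -0.11 and -0.13. The KO share and both medians of the Zfp genes were close to those of these genes, and the WT share of lower genes was above theirs. The match is partial, since the Zfp shares also cover genes outside that range. In the middle 66 Zfp genes by mean signal (7.60 to 8.74), 6 were lower in KO and 16 in WT cells. The split also turned on the scaling of the arrays. Higher and lower counts were 16 and 16 in KO and 19 and 25 in WT cells after quantile normalization, 13 and 17 in KO and 18 and 25 in WT cells with each array centred on its median, and 5 and 58 in KO and 3 and 60 in WT cells with arrays scaled on their poly-A spike-ins. These scalings moved the median of all genes by 0.06, 0.10 and -0.52 in KO and by 0.10, 0.23 and -0.49 in WT cells. The differences of single genes below are relative to the deposited scaling.

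The genes called in one genotype mostly moved the same way in the other. Of 172 genes measured in both LPS comparisons, 145 had differences of the same sign, 19 were lower in both genotypes, 5 were higher in both, and 0 were called in opposite directions. Of all 9220 genes measured in both, 7615 had the same sign, 543 were lower in both, 514 higher in both and 0 called in opposite directions. The agreement in sign was thus near that over all genes. The 19 genes were 86.4% of those lower in KO and 55.9% of those lower in WT cells. Over all genes, those lower in both were 71.0% of the genes lower in KO and 59.0% of those lower in WT cells. Across the 172 genes, Pearson's r between the LPS differences of KO and WT was 0.854 and Spearman's rho 0.836, against 0.892 and 0.832 over 9220 genes. These are correlations across genes that share 4 arrays and are given as a description.

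**Figure D1:**
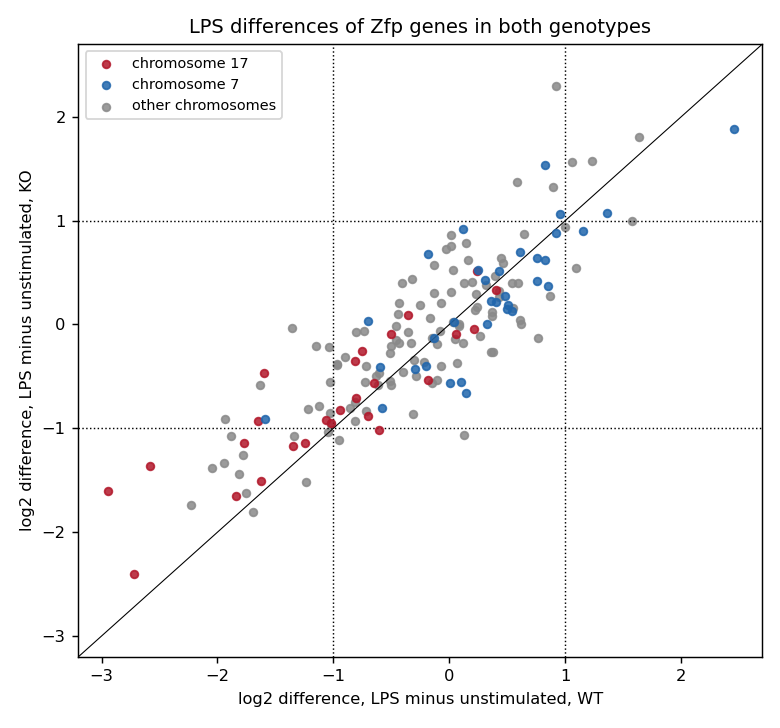
LPS difference of each Zfp gene in KO cells (vertical axis) against that in WT cells (horizontal axis), both as log2 signal after LPS minus unstimulated, for the 172 genes measured in both comparisons. Dotted lines mark 2-fold, the diagonal marks equal differences, and no gene is past 2-fold in opposite directions. Genes on chromosome 17 (red) lie mostly at the lower left, and those on chromosome 7 (blue) mostly above 0 in both.

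Among the genes lower in both genotypes, Zfp51 and Zfp53, neighbours on chromosome 17, had the largest differences in WT cells once low values were raised to the floor, and Zfp51 had the largest in KO cells as well. Zfp51 had a log2 signal of 7.39 after LPS against 9.80 unstimulated in KO cells, and 7.24 after LPS against 9.96 unstimulated in WT cells. Its signal was thus 5.28-fold lower in KO and 6.61-fold lower in WT cells. Zfp53 had 8.28 after LPS against 9.88 unstimulated in KO cells, and 7.58 after LPS against 10.52 unstimulated in WT cells. These are 3.03-fold in KO and 7.69-fold in WT cells. A second probe set of Zfp53, under the floor on both LPS arrays, had bounds of -1.55 in KO and -2.17 in WT cells. Both LPS arrays lay below both unstimulated arrays for each of these genes. Zfp995, from the same stretch of chromosome 17, was at or under the floor on both LPS arrays (6.53 in KO and 6.21 in WT) against 8.16 and 9.38 on the KO and WT unstimulated arrays. Its signal was at least 2.57-fold lower in KO and at least 5.99-fold lower in WT cells, and without the floor the WT difference was -3.17, beyond that of Zfp53. A second probe set of Zfp995, of the cross-hybridising kind, was above the floor only on the WT unstimulated array, at 6.98.

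Outside chromosome 17, Zfp367, Zfp800, Zfp292 and Zfp281 were among the genes lower in both genotypes. Zfp367 had 9.93 and 9.60 on the KO and WT LPS arrays, against 11.67 and 11.83 on the KO and WT unstimulated arrays. Its second probe set, above the floor only unstimulated, had bounds of -0.51 and -0.39. Zfp281, a repressor of pluripotency genes that binds GC-rich DNA, had 10.14 and 9.78 after LPS in KO and WT, against 11.58 and 11.59 unstimulated. Both of its probe sets gave close values, with log2 differences of -1.44 and -1.46 in KO and -1.81 and -1.94 in WT cells. Zfp292, a large protein first described as an activator of growth hormone in the pituitary, differed by -1.63 in KO and -1.76 in WT cells. Zfp800, a gene of pancreatic endocrine development, differed by -1.81 in KO and -1.70 in WT cells.

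Further genes lower in both genotypes had less distinct roles or none that is certain. Zfp386 differed by -1.38 in KO and -2.05 in WT cells, Zfp518a by -1.34 and -1.94, and Zfp62 by -1.26 and -1.78. Zfp326, a subunit of the DBIRD complex that links RNA polymerase II elongation with splicing, had 8.37 and 7.63 after LPS in KO and WT, against 9.44 and 9.51 unstimulated. Zfp692, a repressor of gluconeogenic genes in the liver, differed by -1.08 in KO and -1.34 in WT cells. Zfp932 differed by -1.52 in KO cells, and by at least 2.35-fold in WT cells, where its LPS signal of 5.37 was under the floor. Zfp958 was 2.05-fold lower in KO and at least 2.06-fold lower in WT cells. Zfp991, by its main probe set, was called lower in WT only, at -1.94 against -0.91 in KO, and another probe set gave 0.74 in KO and 0.03 in WT cells.

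Zfp819, Zfp263, Zfp131, Zfp503 and Zfp710 were the genes higher after LPS in both genotypes. Zfp131, a BTB-POZ zinc-finger factor, had 13.20 and 12.88 on the KO and WT LPS arrays, against 11.63 and 11.65 on the unstimulated ones, making it the brightest called gene of the family. Zfp263, which carries both a SCAN and a KRAB domain, had 12.10 and 12.12 after LPS in KO and WT, against 10.30 and 10.48 unstimulated. Its second probe set gave log2 differences of 1.46 in KO and 1.62 in WT cells, close to the 1.81 and 1.63 of the main one. For both genes the LPS arrays lay above the unstimulated arrays with no overlap. Zfp819, a repressor of transposable elements in mouse embryonic stem cells, had 8.80 after LPS against 6.92 unstimulated in KO cells, and 9.25 after LPS against 5.78 unstimulated in WT cells. Its signal was 3.68-fold higher in KO and at least 5.47-fold higher in WT cells, and it had no second probe set. Zfp503 (Nolz1), a factor of the developing striatum, was under the floor unstimulated and at least 2.96-fold higher in KO and at least 2.08-fold higher in WT cells. Its second probe set exceeded the floor only on the WT LPS array, at 7.25. Zfp710 differed by 1.07 in KO and 1.36 in WT cells. Another probe set of Zfp710 exceeded the floor only on the WT unstimulated array, at 6.82, with a bound of -0.03 in WT cells.

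Genes past 2-fold higher in 1 genotype had differences of the same sign in the other by their main probe set. Those called in KO cells were Zfp429 (at least 4.92-fold, with a log2 difference of 0.92 as a bound in WT), Zfp296 (1.54 in KO and 0.82 in WT), Zfp41 (1.37 and 0.58), Zfp46 (1.32 and 0.89) and Zfp84 (1.06 and 0.96). Zfp296 is a cofactor of Klf4 in reprogramming to pluripotency. Another probe set of Zfp84 ran the other way, at -0.63 in KO and -0.80 in WT cells. Those called in WT cells were Zfp949 (0.99 in KO and 1.57 in WT), Zfp790 (0.90 and 1.15) and Zfp282 (0.54 and 1.09). The second probe set of Zfp790 gave 1.47 in KO and 0.46 in WT cells.

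**Figure D2:**
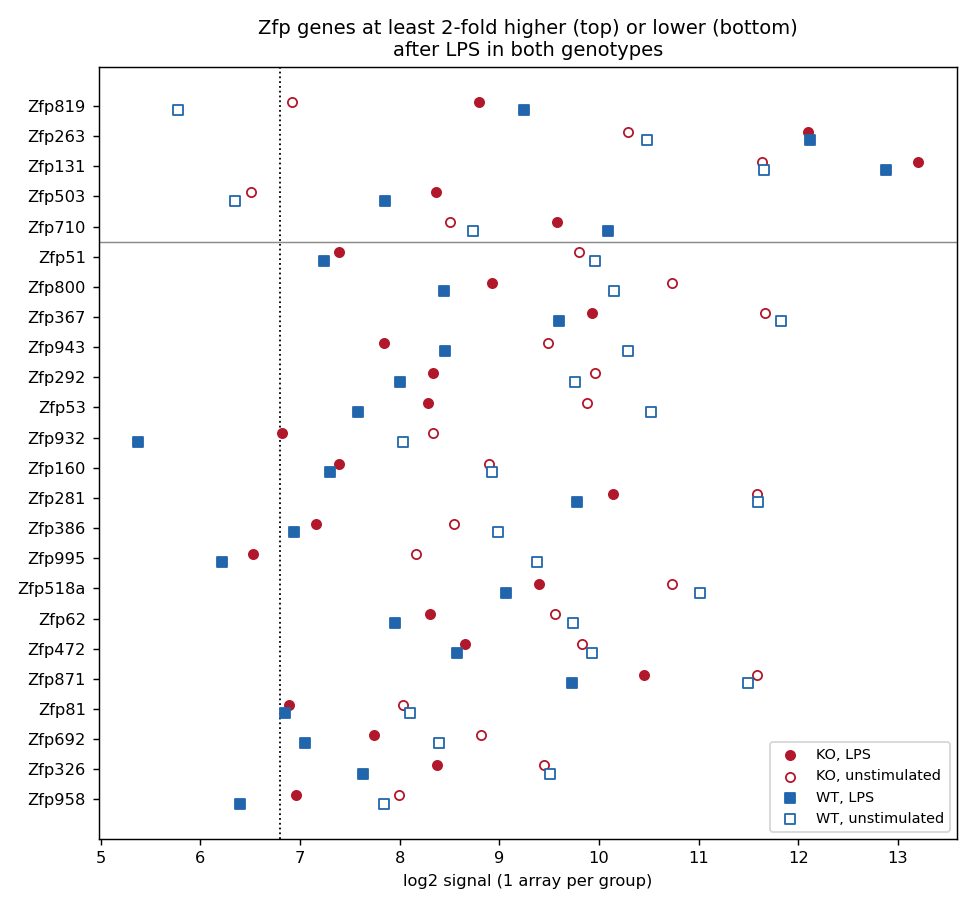
Log2 signal on each of the 4 arrays (horizontal axis) for the 5 Zfp genes at least 2-fold higher (above the line) and the 19 at least 2-fold lower (below it) after LPS in both genotypes. Filled marks are LPS arrays, open marks unstimulated arrays, red circles KO and blue squares WT, and the dotted line is the floor of 6.80. For every gene shown the filled marks lie on one side of the open ones.

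Among called genes, further probe sets mostly had the sign of the main one. Of the 32 genes called after LPS in KO cells, 11 had another measured probe set, which had the same sign for 10 genes and was also called for 7. Of the 42 called in WT cells, 20 had another, which had the same sign for 18 and was also called for 10. No called gene had a probe set called in the opposite direction. Among genes measured but not called by the main probe set, 51 in KO and 45 in WT cells had another measured one, of the same sign for 37 and 35. Another probe set was past 2-fold lower for 6 of these in KO and 8 in WT cells, Zfp101, Zfp207, Zfp622 and Zfp655 being among them in both, and past 2-fold higher for 2 in KO (Zfp110 and Zfp790) and 0 in WT cells.

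By role, the Zfp genes of known function that act as transcription or chromatin factors split between the directions. Of 29 listed, 28 were on the array and 21 above the floor, of which 2 were called higher and 4 lower in each genotype. Over all genes 6.62% were higher and 7.99% lower in KO and 7.29% and 9.69% in WT cells, so 2 of 21 higher is near the background. Zfp131 and Zfp263 were the higher ones in both. Zfp281, Zfp292 and Zfp518a were lower in both. By its main probe set, Zfp644, a partner of the histone methyltransferase G9a, joined them in KO cells (-1.11 in KO and -0.96 in WT). Zfp638, which recruits the silencing complex HUSH to retroviral DNA, joined them in WT cells (-0.20 in KO and -1.15 in WT). These values varied by probe set. Another of Zfp644 gave -0.74 in KO and -1.02 in WT cells. For Zfp638, another gave -0.02 in KO and -0.70 in WT, and a further one bounds of -0.99 and -1.21. Zfp148, a GC-box binding factor, differed by -0.39 in KO and -0.97 in WT cells. Its other probe sets ranged from -1.10 (a bound) to 0.56 in KO and from -0.99 to -0.03 in WT cells. Zfp809, which brings Trim28 to retroviral DNA, differed by 0.93 in KO and 0.99 in WT cells, just under 2-fold in each. Zfp568, which silences a placental transcript of Igf2, differed by 0.70 and 0.61. Zfp410, an activator of the chromatin remodeller gene Chd4, stayed within 0.09 on its 4 arrays, from 10.08 to 10.17. Zfp445, which is not on this list and so not in its counts, differed by -0.86 in KO and -1.03 in WT cells, and its other probe sets by -0.59 and -0.43 in KO and -0.64 and -0.77 in WT cells. Zfp57, another imprint maintenance factor, was not above the floor, and neither were Zfp42 (Rex1), Zfp462, Zfp521, Zfp532, Zfp395 or Zfp467.

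Of 8 genes that bind RNA or act in splicing and on ribosomes, 7 were above the floor, and Zfp326 was the one called by its main probe set, lower in both genotypes. Zfp622 differed by -0.75 in KO and -0.82 in WT cells by its cross-hybridising main probe set and by -1.05 and -1.35 by another. Zfp830 differed by -0.93 and -0.81. Zfp346, which binds double-stranded RNA, differed by 0.86 in KO and 0.01 in WT cells. Zfp598, a ubiquitin ligase that senses collided ribosomes, differed by -0.10 and 0.05. Of the 3 ubiquitin and SUMO ligases above the floor none was called. Zfp91, a ubiquitin ligase of the NF-kB-inducing kinase NIK, differed by -0.55 in KO and -0.73 in WT cells, and the SUMO ligase Zfp451 by -0.15 and -0.46.

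Of the partners through which KRAB proteins repress, few were called and none was lower. Of 22 listed genes, 19 were above the floor, with 1 higher after LPS in KO, 2 of 18 higher in WT and 0 lower in either, against 6.62% higher and 7.99% lower in KO and 7.29% and 9.69% in WT cells over all genes. Trim28 had 11.53 and 11.45 on the KO and WT LPS arrays, against 11.50 and 11.35 on the unstimulated ones, a change of 0.04 in KO and 0.11 in WT. Setdb1 differed by -0.62 in KO and -0.40 in WT cells. Atf7ip, the cofactor that stabilises Setdb1, differed by 1.32 in KO and 1.57 in WT cells, and Chd4 by 0.94 and 1.04.

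The LPS differences were unevenly placed in the genome. On chromosome 17, 9 of 29 measured Zfp genes were lower and 0 higher in KO cells, and 12 of 28 were lower and 0 higher in WT cells, with a median of -0.81 in each. The background for lower calls over all genes was 7.99% in KO and 9.69% in WT cells, as above. The other genes on chromosome 17 had medians of 0.07 in KO and 0.10 in WT cells, with 26 of 459 lower in KO and 29 of 463 lower in WT cells. The Zfp genes on other chromosomes had medians of 0.01 in KO and -0.04 in WT cells, with 13 of 157 lower and 10 higher in KO and 22 of 156 lower and 8 higher in WT cells. Single chromosomes among these varied. On chromosome 5, 3 of 10 Zfp genes were lower in KO and 3 of 11 in WT cells, with medians of -0.47 and -0.51. On chromosome 11, 2 of 6 were lower in KO and 2 of 8 in WT cells, with medians of -0.74 and -0.30. The chromosome 7 genes had medians of 0.25 in KO and 0.31 in WT cells. Of them 4 were higher and 0 lower of 38 in KO cells, and 3 were higher and 1 lower of 39 in WT cells. The background for higher calls was 6.62% in KO and 7.29% in WT cells, and the WT count of higher genes is near it. The median of the chromosome 17 genes minus that of all genes was negative in every alternative setting and both genotypes, from -0.42 to -0.95. No test was made of the difference between chromosomes, and the split by chromosome was made with earlier results of these data known.

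**Figure D3:**
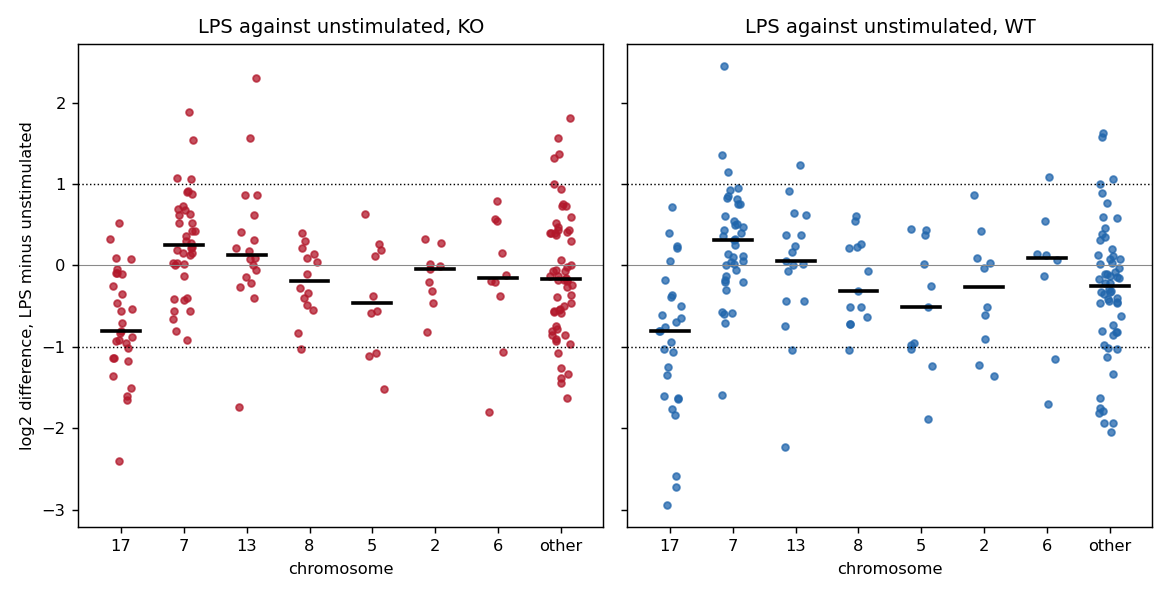
LPS difference of each measured Zfp gene (log2 signal after LPS minus unstimulated) by chromosome, in KO cells on the left and WT cells on the right. Each point is a gene, black bars are medians and dotted lines mark 2-fold. Of the chromosomes with at least 10 Zfp genes, which are those shown by number, 17 has the lowest median in both panels (-0.81) and 7 the highest (0.25 in KO and 0.31 in WT).

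Within chromosome 17 the lower genes lay in 2 runs of neighbours. A run was taken as at least 3 Zfp genes with at most 10 other protein-coding genes between one and the next, in the RefSeq order of GRCm38.p6. The first run holds 16 of the genes, from Zfp160 to Zfp213, and begins 42 protein-coding genes from Spaca6, the host of miR-125a. In it 6 of 14 measured genes were lower in KO and 7 of 14 in WT cells, with medians of -0.88 and -1.27. The second run holds 9 genes, from Zfp871 to Zfp414, with 3 of 9 lower in KO and 5 of 9 in WT cells and medians of -0.92 and -1.02. No gene of either run was called higher in either genotype under the deposited scaling. A short run of Zfp119a, Zfp959 and Zfp119b farther along had none called, with WT differences of -0.81 for Zfp959 and -0.75 for Zfp119b.

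Inside the first run, values ranged from -2.40 (Zfp51) to 0.09 (Zfp944) in KO and from -2.94 (Zfp53) to 0.72 (Zfp213) in WT cells. Zfp160 had 7.39 and 7.30 on the KO and WT LPS arrays, against 8.90 and 8.93 on the unstimulated ones. Its neighbour Zfp677 differed by -1.02 in KO and -0.61 in WT cells. Zfp52, next to Zfp53, differed by -0.71 and -0.80, and Zfp760 by -0.83 and -0.95. The genes of this run were not uniformly lower, since Zfp983 differed by -0.10 in KO and -0.50 in WT cells. Zfp944 differed by 0.09 in KO and -0.36 in WT cells by its main probe set, but another, under the floor after LPS, had bounds of -0.59 in KO and -1.68 in WT cells. In the second run, Zfp871 had 10.45 and 9.72 after LPS in KO and WT, against 11.59 and 11.49 unstimulated, and its other probe sets gave -0.93 and -1.26 in KO and -1.91 and -1.65 in WT cells. Zfp472 had 8.66 and 8.57 after LPS in KO and WT, against 9.83 and 9.93 unstimulated, and Zfp81 differed by -1.14 in KO and -1.25 in WT cells. The 3 measured genes of other families inside the second run varied in direction: Myo1f, a myosin of neutrophil migration, was higher by 1.38 in KO and 1.59 in WT cells, Adamts10 differed by -0.11 and -0.16, and Cyp4f13 by -0.51 and -0.81.

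**Figure D4:**
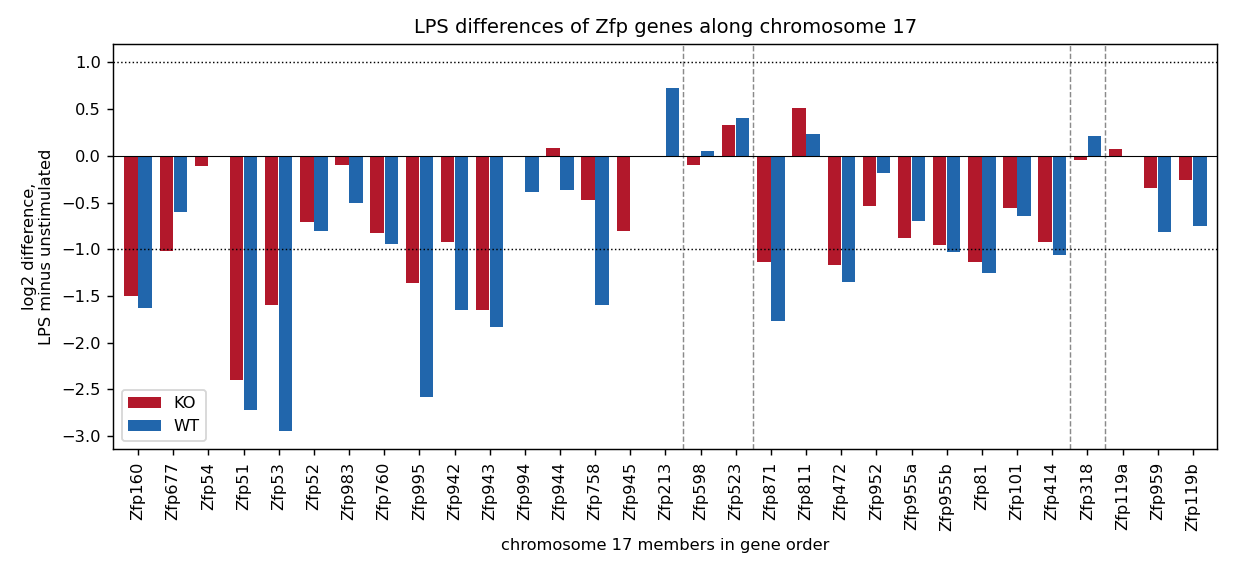
LPS difference (log2 signal after LPS minus unstimulated) of the Zfp genes of chromosome 17 in their order along it, KO in red and WT in blue. Dashed lines mark gaps of more than 10 other protein-coding genes, dotted lines 2-fold, and a missing bar means a gene not measured in that comparison or a difference of 0. Most bars from Zfp160 to Zfp758 and from Zfp871 to Zfp414 point down in both genotypes.

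Runs on other chromosomes varied in direction. The run with Zfp930, Zfp868 and Zfp866 also leaned down, with medians of -0.34 in KO and -0.51 in WT cells. In it 4 of 5 measured genes were below 0 in KO and 3 of 4 in WT cells, with none called. The run of Zfp397, Zfp35 and Zfp24 had medians of -0.02 in KO and -0.36 in WT cells. That of Zfp653, Zfp809 and Zfp810 had -0.25 in KO and 0.30 in WT cells. The chromosome 13 run with Zfp429 had 10 genes and medians of 0.26 in KO and 0.16 in WT cells, with Zfp429 called higher in KO and Zfp729a lower in WT, at -1.04. A chromosome 7 run of 9 genes that includes Zfp768 and Zfp646 had all measured genes above 0, from 0.15 to 0.92 in KO and from 0.05 to 0.85 in WT cells, with none called. Another chromosome 7 run, with Zfp84, Zfp790 and Zfp568, had medians of 0.70 in KO and 0.78 in WT cells. In all, 13 runs held 82 of the 198 genes.

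Promoter sequences are shown for 4 genes of the 2 chromosome 17 runs, because most measured genes there had lower signal after LPS, to differing degrees. Their windows show what neighbours share. RefSeq windows of GRCm38.p6, from 250 bases before to 50 bases after a transcript's start, matched 165 of the 198 genes, with 206 windows. They are printed 5′ to 3′ on the strand of the gene in lower case, with the E-box CACGTG and the CCAAT box in capitals, searched on both strands. The windows are Zfp943 at chr17:21962309-21962608 on the plus strand, Zfp758 at chr17:22361213-22361512 on the plus strand, Zfp472 at chr17:32965581-32965880 on the plus strand and Zfp81 at chr17:33358829-33359128 on the minus strand.
Zfp943: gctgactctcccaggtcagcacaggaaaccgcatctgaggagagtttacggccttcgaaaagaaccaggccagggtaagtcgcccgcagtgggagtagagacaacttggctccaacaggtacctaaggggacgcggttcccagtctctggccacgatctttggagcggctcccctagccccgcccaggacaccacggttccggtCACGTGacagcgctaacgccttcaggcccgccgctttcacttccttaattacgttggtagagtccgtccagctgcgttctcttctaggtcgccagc
Zfp758: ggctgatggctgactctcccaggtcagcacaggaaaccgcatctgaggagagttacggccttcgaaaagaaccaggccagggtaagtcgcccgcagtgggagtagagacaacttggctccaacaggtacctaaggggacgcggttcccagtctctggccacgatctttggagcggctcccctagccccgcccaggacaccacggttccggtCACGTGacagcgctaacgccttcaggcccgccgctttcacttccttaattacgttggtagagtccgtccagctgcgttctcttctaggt
Zfp472: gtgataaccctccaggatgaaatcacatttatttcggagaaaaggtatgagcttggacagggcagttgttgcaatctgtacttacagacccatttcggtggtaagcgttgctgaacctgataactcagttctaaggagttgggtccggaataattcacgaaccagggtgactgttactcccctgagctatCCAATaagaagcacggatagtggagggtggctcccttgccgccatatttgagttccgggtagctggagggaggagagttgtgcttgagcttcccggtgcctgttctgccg
Zfp81: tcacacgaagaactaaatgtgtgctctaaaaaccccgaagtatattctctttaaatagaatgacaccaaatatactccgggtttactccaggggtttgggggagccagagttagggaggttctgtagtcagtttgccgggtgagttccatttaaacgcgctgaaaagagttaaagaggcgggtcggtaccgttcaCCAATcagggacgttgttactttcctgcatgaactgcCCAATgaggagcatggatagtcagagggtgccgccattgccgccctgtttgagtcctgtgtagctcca

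The windows of Zfp943 and Zfp758, both in the first run, were 94.8% identical. Each gene starts back to back with another: the window of Zfp943 overlaps that of Zfp942 on the other strand by 194 bases, and that of Zfp758 overlaps that of Zfp944 by 162 bases. The windows of Zfp942 and Zfp944 were 84.3% identical. Over 589 pairs of windows on chromosome 17 the median identity was 46.6%, and 9 pairs reached 60%. By their main probe sets, Zfp943 had -1.65 in KO and -1.84 in WT cells, Zfp758 had -0.47 and -1.60, Zfp942 had -0.93 and -1.65, and Zfp944 had 0.09 and -0.36. The other measured probe set of Zfp944, with bounds of -0.59 and -1.68, lay nearer to Zfp942 and Zfp758. Zfp955a and Zfp955b, with windows that were 100% identical, had -0.88 and -0.95 in KO and -0.70 and -1.02 in WT cells, and near-copies can share probes.

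The 2 runs differed in the share of windows with each motif. The E-box was in 5 of 17 windows of the first run (29.4%), against 7.15% of all 32851 windows, compared with 1 of 10 windows of the second run, and 4 of those 5 windows are the back-to-back pairs, which share 1 E-box a pair. The CCAAT box was in 10 of 10 windows of the second run, against 37.4% of all windows and 49.0% of all Zfp windows, and in 7 of 17 of the first. Those 10 windows cover 9 genes and include the identical ones of Zfp955a and Zfp955b, so they are not separate sequences throughout. The windows of Zfp472 and Zfp81 above show 1 and 2 copies. Over all Zfp windows the TATA box TATAAA was in 3.88%, against 13.6% of all windows, and the GC box GGGCGG in 52.4%, against 35.7%. Over the windows of protein-coding genes alone, the TATA box was in 12.6% and the GC box in 46.2%. None of these motifs contains another, and a match here is a description of sequence only.

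Genotype differences of Zfp genes were smaller than LPS differences, as they were over all genes. The median size of the log2 difference, without its sign, was 0.22 for KO against WT after LPS and 0.19 unstimulated, compared with 0.47 for LPS in KO and 0.51 for LPS in WT cells. Over all genes these sizes were 0.19 and 0.16 for genotype, and 0.39 and 0.42 for LPS, in the same order. After LPS 3 of 182 measured genes (1.65%) were higher and 1 (0.549%) was lower in KO, against 0.615% higher and 0.626% lower among all 9262 genes. Among other genes in the interquartile signal range of the Zfp genes, 1.19% were higher and 1.27% lower. Unstimulated, 1 of 181 was higher and 1 lower, against 0.351% higher and 0.66% lower among all 9401 genes. In that signal range 0.732% were higher and 1.39% lower. The medians were 0.11 after LPS and -0.01 unstimulated, compared with -0.01 and 0.00 over all genes, and with each array centred on its median the value after LPS was -0.02. Markers of eosinophils, basophils and mast cells also differed by genotype, with differences of -1.23 after LPS and -1.10 unstimulated for Prg2 and of -1.48 and -1.61 for Mcpt8. Erythroid markers differed as well in unstimulated cells, where all 4 above the floor were higher in KO, with a median of 0.67 and Car1 past 2-fold at 1.05. The part of these markers in the Zfp differences was not tested.

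Zfp593 was the gene called at both times. This factor, whose yeast homolog acts in biogenesis of the large ribosomal subunit, had a log2 signal of 10.18 in KO against 8.60 in WT cells after LPS, and 9.88 in KO against 8.73 in WT cells unstimulated. Both KO arrays thus lay above both WT arrays, by 1.57 after LPS and 1.14 unstimulated. The probe set is of the kind marked as cross-hybridising, and the other probe set of Zfp593 was under the floor on all 4 arrays, with 6.37 and 5.92 in KO and WT cells after LPS. Across 165 genes measured at both times, Pearson's r between the genotype differences was 0.198 and Spearman's rho 0.086, and 82 genes had the same sign at both times. Over all 8798 genes measured at both times, r was 0.281 and rho 0.204, and 5011 had the same sign. Of those 8798, 10 were called higher and 19 lower at both times, and 1 in opposite directions.

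The other genes called after LPS were Zfp429, Zfp991 and Zfp637. Zfp429 had 9.09 in KO against 7.72 in WT cells after LPS, and was under the floor in both genotypes unstimulated (6.52 in KO and 6.57 in WT). Zfp991 had 8.53 in KO against 7.39 in WT cells after LPS, but another of its probe sets gave -0.12. Zfp637 had 6.86 in KO against 7.93 in WT cells after LPS, and 7.92 in KO against 7.80 in WT cells unstimulated. Unstimulated, Zfp995 was the lower gene, with 8.16 in KO against 9.38 in WT cells. Its cross-hybridising second probe set, under the floor in KO, had a bound of -0.19. Zfp52 and Zfp943, also of the first chromosome 17 run, were lower in KO at both times without reaching 2-fold, at -0.79 and -0.61 after LPS and -0.88 and -0.80 unstimulated. Zfp760 and Zfp677 of that run were higher in KO at both times, by 0.63 and 0.15 after LPS and 0.51 and 0.56 unstimulated. Over the run, 9 of 12 measured genes were above 0 after LPS and 4 of 16 unstimulated, with medians of 0.15 and -0.25.

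**Figure D5:**
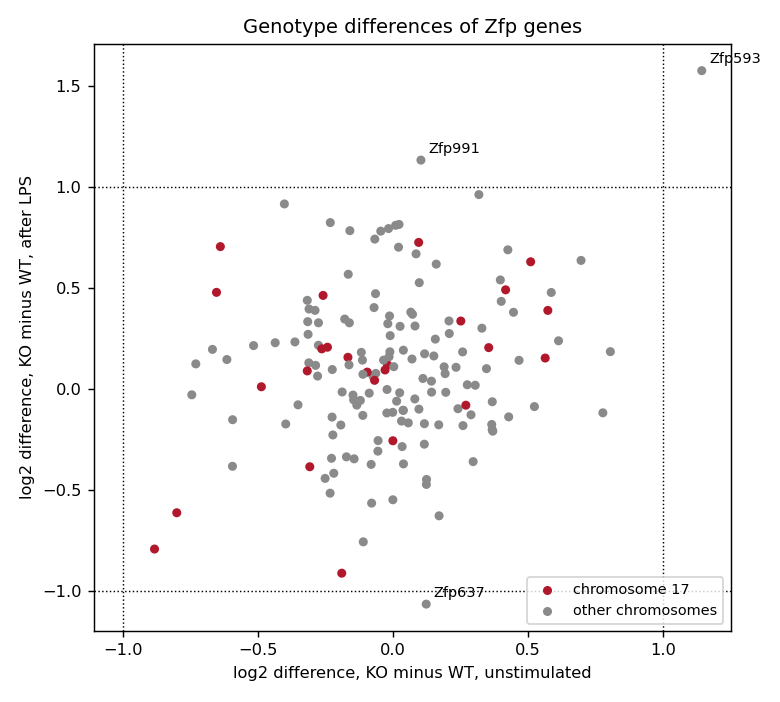
Genotype difference of each Zfp gene (log2 signal in KO minus WT) after LPS (vertical axis) against that in unstimulated cells (horizontal axis), for the 165 genes measured in both comparisons. Dotted lines mark 2-fold and red points are genes on chromosome 17. Zfp593, at 1.14 unstimulated and 1.57 after LPS, is the gene past 2-fold at both times.

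The last comparison sets the LPS response of KO cells against that of WT cells, as the log2 difference in KO minus that in WT. It uses the same 4 arrays as the comparisons above and is not independent of them. Of 198 genes, 7 (3.54%) had a response higher by at least 1 in KO and 1 (0.505%) had a lower one. Over all 9865 genes the shares were 1.23% and 0.872%. Among the 2621 other genes in the interquartile signal range of the Zfp genes they were 2.52% and 1.91%. The median was 0.09, against -0.01 over all genes and 0.02 over those 2621. The genes with the higher value were Zfp429 (1.38), Zfp53 (1.34), Zfp120 (1.32), Zfp995 (1.22), Zfp758 (1.13), Zfp280c (1.05) and Zfp991 (1.03). For Zfp53, Zfp758 and Zfp995, neighbours in the first chromosome 17 run, both genotypes were lower after LPS and WT more so. Zfp120 had 8.30 after LPS against 8.34 unstimulated in KO cells, and 7.39 after LPS against 8.74 unstimulated in WT cells. Zfp280c differed by -0.58 in KO and -1.63 in WT cells. Zfp429 and Zfp995 have a value under the floor in this comparison, so their numbers are neither exact nor bounds. The second probe set of Zfp53 was under the floor on both LPS arrays, so its value of 0.63 is likewise neither exact nor a bound. Zfp637 had the 1 lower value, -1.19, with an LPS difference of -1.06 in KO and 0.13 in WT cells.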

How the data were processed

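Neutrophil RNA of 4 groups was measured on 4 Affymetrix arrays, 1 per group, each a pool of 3 experiments per the series design text. The deposited values are log2 signals of 45101 probe sets, which the submitters' processing notes credit to MAS5, version not given in the sources used here. Unlogged, each array had a trimmed mean of 500.003 or 500.004 (2% removed at each end), so the authors' values were already scaled to one target, which would hide a shift common to most genes. Arrays have no read depth, and precision is limited by how few there are.

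Gene names came from the platform annotation of GEO: 34945 probe sets that name 1 gene were used, 932 with several symbols and 9211 unlisted ones were not. Each gene took its probe set with the highest mean. The floor was the 60th percentile of all values, calls were made from 2-fold, and values under the floor were set to it. With 1 array per group no p-value or SD exists. The calling step was tested on simulated data with shifted genes. Those genes were all bright, with little scatter and shifts well beyond 2-fold, so the test does not show how calls fare near the floor. Named genes were the 10 highest and 10 lowest called differences per LPS comparison, the 3 largest bounds in each direction, the 5 largest genotype and response differences in each direction, the 5 brightest genes, the role and corepressor lists, and the chromosome 17 genes with the largest differences. Other called genes, probe sets and neighbours were named after their values were seen, and the limit of 10 genes within a run was also set then. The members, lists and the split by chromosome were chosen with earlier results of these data known.

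Alternatives were quantile normalization, median centring, poly-A spike-in scaling, floors at the 50th and 75th percentile, no floor, and the mean over probe sets. Further ones were no probe sets with suffix s, x or a, symbols without letters after the number, and a background in the interquartile signal range of the Zfp genes. Promoters and gene order are RefSeq's, on GRCm38.p6. The build used for the platform annotation was not given. Python 3.11.15, pandas 2.3.3, numpy 2.4.6, scipy 1.17.1 and matplotlib 3.10.9 were used.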

Additional observations from a re-analysis of the deposited data

Results flagged for a closer look

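Zfp637 had LPS differences of opposite sign in KO and WT cells, and the WT one was small. Its LPS difference was -1.06 in KO and 0.13 in WT cells, so that the response in KO minus that in WT was -1.19 on the log2 scale. It had 6.86 after LPS against 7.92 unstimulated in KO cells, and 7.93 after LPS against 7.80 unstimulated in WT cells. The low value is that of the KO LPS array alone, close to the floor of 6.80. Its 1 probe set gave a response difference from -1.33 to -1.03 over the 8 alternatives in which it was measured. With 1 array per group the difference was not tested.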

How the results depend on the processing

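The precision is that of 1 array per group, and dim genes sit near the floor. No paired analysis was possible because each group holds 1 array. A planned split by KRAB domain was not run, since no protein sequences were used here. Of 32 calls after LPS in KO cells 13 remained in every alternative where the gene was measured, of 42 in WT cells 15, of 4 genotype calls after LPS 1, of 2 unstimulated 0, and of 8 response calls 1. Causes were not tested, except that a higher floor leaves fewer genes and a lower one more.

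Quantile normalization gave 16 genes higher after LPS in KO and 19 in WT cells, medians of 0.042 in KO and 0.062 in WT, 2 lower in KO against WT after LPS and 2 lower in the response difference. Median centring gave medians of 0.0076 in KO and 0.092 in WT cells, 18 higher in WT, 2 lower in KO against WT after LPS with a median of -0.019, and 4 higher in the response difference with a median of -0.018. Poly-A scaling gave 5 higher and 58 lower in KO (median -0.56), 3 higher and 60 lower in WT (median -0.60), 0 lower in KO against WT after LPS, 2 higher unstimulated with a median of 0.087, and 2 lower in the response difference.

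With the floor at the 50th percentile, 5 genes were higher and 3 lower in KO against WT after LPS, 2 and 4 unstimulated, and 15 and 5 in the response difference. At the 75th percentile, 4 were higher and 11 lower after LPS in KO, 3 and 15 in WT, 1 and 0 in KO against WT after LPS, 0 lower unstimulated, and 0 and 0 in the response difference, where Zfp991 turned to -0.10. Without a floor, 16 were higher after LPS in KO and 13 in WT, 10 higher and 3 lower in KO against WT after LPS, 3 and 4 unstimulated, and 21 and 6 in the response difference. The mean over probe sets gave 4 higher after LPS in WT, and 0 higher and 0 lower in KO against WT unstimulated. Leaving out probe sets with suffix s, x or a gave 0 higher in KO against WT unstimulated.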

Other observations

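The size of LPS differences was smallest among the dimmest genes of the family, where values set to the floor also shrink differences. In the dimmest 66 genes the median size of the log2 difference was 0.38 in both KO and WT cells, in the middle 66 it was 0.56 in KO and 0.61 in WT, and in the brightest 66 it was 0.45 in KO and 0.61 in WT. Of the brightest 66 genes, 11 were lower after LPS in KO and 13 in WT cells, with 4 and 3 higher. Over all genes 7.99% were lower in KO and 9.69% in WT cells. Among other genes in the interquartile signal range of the whole family, 11.8% and 13.5% were lower. That range ends at a mean log2 signal of 9.10, while the brightest 66 genes run from 8.74 to 13.38, so it is not matched to them.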
